A study of Mus musculus with 6 samples.

Results

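The nuclei described here carried messages of Baiap3, Ecel1 and Magel2, genes that are prominent in neurons of the hypothalamus. They were picked from single-nucleus RNA-sequencing of C57BL/6 S-56 mouse neonates that had received 5 µl of lysophosphatidic acid (LPA) or of its carrier, dilute bovine serum albumin (vehicle), in the right lateral ventricle at postnatal day 7 (P7), as a model of post-hemorrhagic hydrocephalus. Brains without olfactory bulbs and cerebellum were taken at P15, and nuclei negative for the neuronal protein NeuN were sorted, so that neurons in these libraries are those that passed a sort against them. Each group held 3 libraries. A nucleus was a member if it had at least 300 genes, at most 1% of unique molecular identifiers (UMIs) from mitochondrial genes, at least 4 UMIs of Baiap3, Ecel1 and Magel2 together, at least 10 of Meg3, at most 2 of Drd1, Drd2 and Adora2a together and at most 2 of Mog and Mag together. The rule found 1398 members among 60724 nuclei kept from 63383 barcodes, which is 2.30%.

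Members came from every library. There were 180, 175 and 356 in LPA libraries 1, 2 and 3, and 262, 193 and 232 in vehicle libraries 1, 2 and 3. The median number of UMIs per member nucleus was 7031 to 7752.5 across LPA libraries and 5795 to 6763 across vehicle libraries. By their UMIs of Xist and of Y-linked genes, LPA library 1 and vehicle libraries 1 and 3 were male and LPA libraries 2 and 3 and vehicle library 2 female, so that the sexes were not balanced between the groups. Summed UMIs of members ran from 1423160 to 3196672 per library. Pairs of libraries shared 268 to 303 barcodes, and no barcode of a member recurred as a member in another library. Members were set beside 16638 other nuclei with at least 10 UMIs of Meg3 and at most 2 of Mog and Mag, here called other Meg3-high nuclei. Within these, 1651 nuclei with over 2 UMIs of Drd1, Drd2 and Adora2a stood for striatal-type neurons and 280 nuclei with at least 4 UMIs of Slc17a7 for cortical-type glutamatergic neurons. A further 11196 nuclei with over 2 UMIs of Mog and Mag and few of Meg3, taken as oligodendrocyte-type, gave the background that free RNA leaves in nuclei of another kind.

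The hypothalamus joins the nervous system to the endocrine system. Its neurons release peptides such as vasopressin, galanin and growth hormone-releasing hormone, and sense steroid hormones, prolactin and leptin. Many genes with parental imprinting, in which only the copy from the mother or from the father is used, are expressed strongly in these neurons, Magel2, Ndn and Peg3 among them.

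The rule drew mainly on Baiap3, which encodes a C2-domain protein of dense-core vesicle release. It was detected in 1354 of the 1398 members and reached 4 UMIs by itself in 736. Magel2, a maternally silenced gene of the Prader-Willi region that acts in protein trafficking, was detected in 767 members, and Ecel1, a membrane metallopeptidase, in 596. All 3 genes were found in 276 members and Baiap3 was the sole rule gene in 334. Baiap3 stood at 425, 441 and 405 UMIs per 1e+06 UMIs of the population (CPM) in the LPA libraries and at 470, 449 and 506 CPM in the vehicle libraries, against 52.3 CPM in other Meg3-high nuclei. These values chose the members and are given as a description. At the threshold, 563 members with exactly 4 rule UMIs averaged 58.5 CPM of Dlk1 and 182 CPM of Scn9a, while 806 nuclei with 3 UMIs, just outside, averaged 54.4 and 161 CPM. With 2 UMIs, 1281 nuclei averaged 33.2 and 126 CPM. These are means over the 6 libraries, and within libraries the order varied, since Dlk1 was higher with 3 than with 4 rule UMIs in LPA library 3 (54.0 against 47.9 CPM), vehicle library 2 (62.4 against 45.7 CPM) and vehicle library 3 (72.7 against 69.3 CPM).

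Dlk1 and Scn9a, the 2 marker genes that the rule did not count, were both higher in members than in other Meg3-high nuclei of the same library in 6 of 6 libraries. Dlk1, a paternally expressed Notch-type ligand of endocrine tissues (mm10, chr12:109452823-109463336, plus strand), was at 74.7, 73.1 and 58.5 CPM in LPA libraries 1, 2 and 3. The vehicle libraries held 74.1, 67.6 and 77.7 CPM of Dlk1, and other Meg3-high nuclei 8.03 to 14.4 CPM. Scn9a, the sodium channel Nav1.7 (chr2:66480080-66634962, minus strand), was at 196, 152 and 195 CPM in LPA members and at 198, 177 and 224 CPM in vehicle members. Other Meg3-high nuclei held 50.1 to 70.5 CPM of Scn9a, so that members and others did not overlap for either gene. Among nuclei with at least 5000 UMIs, thinned to that number (1179 members, 10946 other Meg3-high and 7095 oligodendrocyte-type nuclei, the shallower ones left out), Dlk1 was detected in 20.3% of members (95% Wilson interval 18.1% to 22.7%), 3.69% of other Meg3-high nuclei and 0.324% of oligodendrocyte-type nuclei. Over all nuclei and without thinning these shares were 27.7%, 4.68% and 0.384%. The intervals cover counting error only and pool the libraries. Members against other Meg3-high nuclei is the contrast that the rule made, so these differences are described without a test.

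The 15 genes outside the rule with the largest excess in members, by the mean log2 ratio of CPM + 5 over the 6 libraries, held several genes of hormone sensing. Dlk1 led with 2.23 ± 0.28 (SD, n = 6). Esr1, estrogen receptor alpha, was at 71.5, 75.2 and 82.0 CPM in LPA members and at 62.9, 83.2 and 84.6 CPM in vehicle members, against 17.4 ± 2.39 CPM in other Meg3-high nuclei (SD, n = 6). Prlr, the prolactin receptor, was at 92.6 ± 12.1 against 22.4 ± 4.21 CPM, and Calcr, the calcitonin receptor, at 39.0 ± 8.33 against 8.40 ± 1.96 CPM. Each of these receptor genes was lower in striatal-type nuclei (8.01 CPM of Esr1, 8.27 of Prlr and 13.9 of Calcr) than in members. Irs4, an insulin receptor substrate of the hypothalamus, reached 19.6 ± 3.66 against 2.61 ± 0.41 CPM. For Dlk1, Esr1, Prlr, Calcr and Irs4, the lowest member library was above the highest library of other Meg3-high nuclei.

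Other leading genes were Gm45194, Zim1, Dgkk, Vwa5b1, Asb4, Arhgap36, Esyt3, Scn9a and 4930447C04Rik. Dgkk encodes a diacylglycerol kinase and Esyt3 an extended synaptotagmin. Dgkk stood at 48.5 ± 8.18 CPM in members against 8.76 ± 1.88 CPM, and Esyt3 at 28.3 ± 1.73 against 6.10 ± 0.86 CPM. Vwa5b1 was at 60.04 ± 9.45 against 12.7 ± 1.77 CPM. Gm45194, Dgkk, Irs4 and Arhgap36 are on the X chromosome, 4 of the 15, where 3.48% of the 10684 genes with at least 100 member UMIs are X-linked. 4930447C04Rik (chr12:72881109-72940774, minus strand) overlaps Six6 on the other strand, a transcription factor gene of the ventral hypothalamus. It was at 103 ± 9.93 against 31.9 ± 5.46 CPM, while Six6 itself had only 35 UMIs in members.

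**Figure D1:**
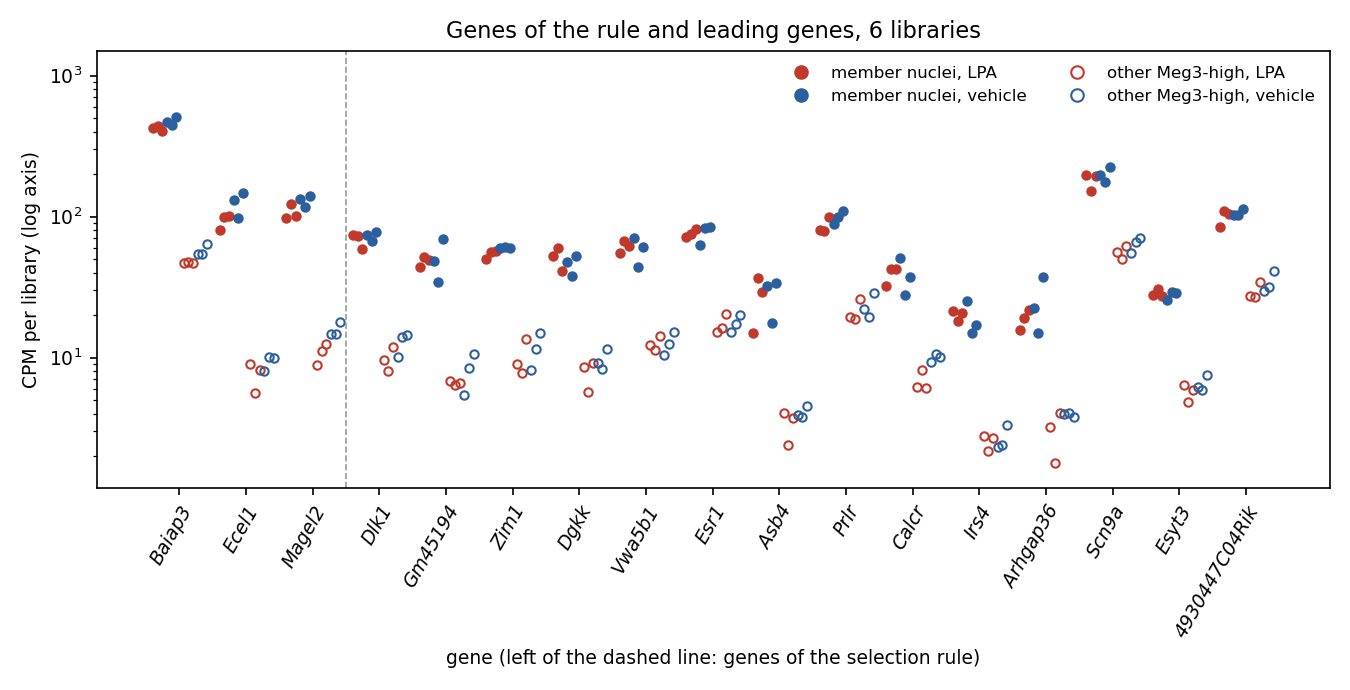
CPM (log axis) of the 3 rule genes and 14 of the 15 leading genes in each of the 6 libraries, in members (filled) and in other Meg3-high nuclei (open), with LPA libraries in red and vehicle libraries in blue. For every gene the 6 filled points lie above the 6 open points.

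Several transcription factors of the hypothalamus were higher in members, most of them at low counts, and those of the telencephalon were lower. As background, 24.8% of the 10684 genes with at least 100 member UMIs were higher in members than in other Meg3-high nuclei in 6 of 6 libraries and 13.5% were lower in 6 of 6, with a median log2 ratio of 0.06. Of 30 hypothalamic transcription factors, 8 had at least 100 member UMIs. Sim1, Isl1, Six3 and Pou2f2 among them were higher in 6 of 6 libraries, none was lower in 6 of 6, and the median was 0.38. Sim1, which specifies neurons of the paraventricular and supraoptic nuclei, was at 26.2 ± 4.84 CPM against 6.83 CPM. Isl1, found in arcuate and other ventral neurons, was at 30.6 ± 5.13 against 14.3 CPM. Otp, Nkx2-1 and Hmx2 fell below 100 UMIs, with 61, 83 and 32 UMIs, and were at 5.55 against 0.97 CPM, 7.18 against 2.55 CPM and 2.84 against 0.25 CPM, each higher in members in 6 of 6 libraries. Others at low counts went the other way on average, as Nkx2-2, at 4.31 against 7.78 CPM and higher in 1 of 6 libraries, and Lhx9, at 7.26 against 8.32 CPM and higher in 2 of 6.

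All 5 telencephalic transcription factors with enough UMIs were lower in members in 6 of 6 libraries, with a median log2 ratio of -1.02. Foxp1 was at 423 ± 21.8 against 863 CPM and Bcl11b at 69.5 ± 15.5 against 249 CPM. All 8 measured striatal genes, Rarb, Meis2 and Penk among them, were lower too, at a median of -1.19. The rule's limit on Drd1, Drd2 and Adora2a bears on both of these lists, since the 1651 striatal-type nuclei are among the other Meg3-high nuclei. Of 10 hindbrain factors, 8 had no UMI in members, and the most abundant, Pax2, had 17. The label of hypothalamic-type neurons rests on the hormone sensors and on factors that few members showed, since Isl1 was found in 253, Six3 in 230 and Sim1 in 96 of 1398 members (18.1%, 16.5% and 6.87%, unthinned). Oligodendrocyte-type nuclei had a UMI of these genes in 0.491%, 1.57% and 0.188%. In striatal-type nuclei the shares were 3.82%, 23.0% and 0.424%, so that Six3 was more frequent there than in members. The nuclei are therefore called here members of the rule.

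Imprinted genes were mostly higher in members. Of 49 listed genes outside the rule, 38 had at least 100 member UMIs, and 31 of these were higher in members in 6 of 6 libraries, with 1 lower in 6 of 6. The median log2 ratio was 0.47, beside 0.06 for all genes and the 24.8% of genes higher in 6 of 6 libraries. Summed over the list, members held 9480 CPM and other Meg3-high nuclei 6568 CPM, of which Rian, a non-coding RNA, gave the most. The rule itself used Magel2 and Meg3, which are imprinted and share regions with several listed genes. Gnas, which encodes the stimulatory G protein alpha subunit and its neuroendocrine isoforms (chr2:174284320-174346744, plus strand), was at 554, 659 and 593 CPM in LPA members, at 683, 580 and 703 CPM in vehicle members, and at 234 to 295 CPM in other Meg3-high nuclei.

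The excess differed among imprinted regions. In the Peg3 region of chromosome 7, Zim1, Usp29 and Peg3 had log2 ratios of 1.99 ± 0.25, 1.13 ± 0.08 and 0.74 ± 0.14 (SD, n = 6). Zim1, a zinc finger gene, was at 57.3 ± 3.96 CPM against 10.8 CPM. In the Peg10 region of chromosome 6, Asb4, Calcr and Peg10 had ratios of 1.84 ± 0.50, 1.71 ± 0.37 and 1.30 ± 0.34, while their neighbors Sgce and Ppp1r9a had 0.27 ± 0.14 and 0.12 ± 0.09. In the Dlk1 region of chromosome 12, Dlk1 (2.23) stood apart from Rtl1 (0.57), Rian (0.41) and Mirg (0.35). In the Prader-Willi region of chromosome 7, Ndn was at 0.61, and Snhg14, Ube3a and Snrpn lay between 0.25 and 0.36. Nap1l5 and Mest, paternally expressed genes of chromosome 6, were at 1.12 and 0.94, and Zdbf2 of chromosome 1 at 0.90. The exceptions were Airn, an antisense RNA of Igf2r, at -0.46 ± 0.22 and lower in every library, Igf2r, Inpp5f, Bcl2l1, Blcap and Kcnk9, whose log2 ratios lay between -0.05 and 0.06, and Ppp1r9a, which was higher in 5 of 6 libraries.

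**Figure D2:**
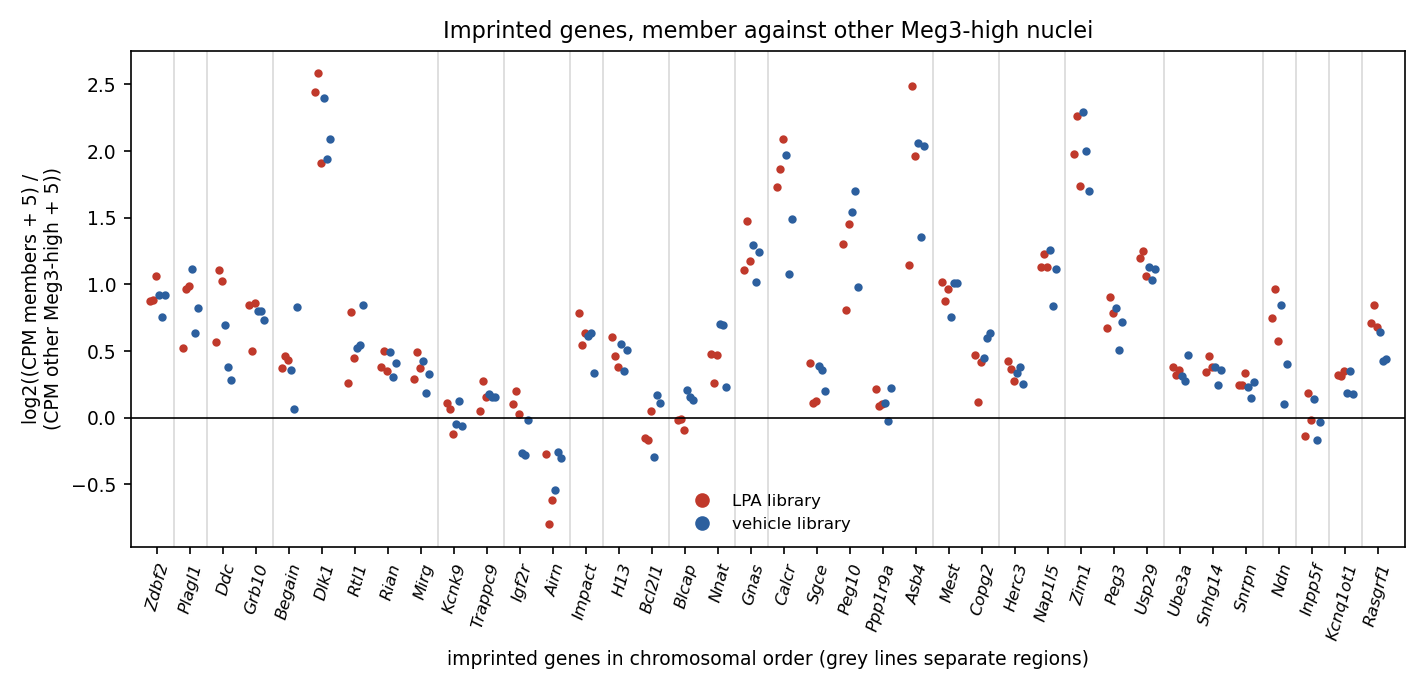
Log2 ratio of CPM + 5 in members to other Meg3-high nuclei for 38 imprinted genes in chromosomal order, 1 point per library (LPA red, vehicle blue), with grey lines between regions and a line at 0. Dlk1, Calcr, Asb4 and Zim1 lie highest, and Airn is the sole gene below 0 in all libraries.

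Levels of other gene groups were compared in the same way. Rbfox3, which encodes the NeuN protein used for the sort, was lower in members, at 232, 216 and 234 CPM in LPA libraries and 211, 183 and 209 CPM in vehicle libraries against 346 to 398 CPM in other Meg3-high nuclei. Snhg11, a neuronal non-coding RNA, was higher (5066 ± 274 against 2915 CPM). Among synaptic genes, 7 of 24 were higher and 7 lower in 6 of 6 libraries, at a median of -0.06, beside 24.8% and 13.5% of all genes. The number of higher ones was thus near the share of all genes. Gabrg1, Gabra3, Gabre and Gabrq, which encode GABA-A receptor subunits, were among the 7 higher ones. Gabrg1 was at 90.4 ± 14.9 against 35.3 CPM, Gabra3 at 108 ± 9.30 against 58.3 CPM, and Gabre and Gabrq at 11.9 ± 1.67 against 2.01 CPM and 11.2 ± 2.43 against 2.17 CPM. Grin2a, an NMDA receptor subunit of mature forebrain neurons, was lower (409 ± 54.5 against 767 CPM). Of 10 sodium channel genes, 5 were higher in 6 of 6 libraries, Scn9a, Scn7a, Scn3a and Scn2a among them, and Scn8a was lower. Of 22 hormone and neuropeptide receptor genes, 11 were higher and 5 lower in 6 of 6 libraries. Ghr, the growth hormone receptor, was among the higher ones (292 ± 32.0 against 163 CPM). Of 16 dense-core vesicle genes, 8 were higher and 2 lower in 6 of 6 libraries. Ptprn was at 344 ± 14.5 against 241 CPM and Scg2 at 49.3 ± 9.26 against 28.6 CPM.

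Slc18a2, the vesicular monoamine transporter, and Ddc, aromatic amino acid decarboxylase, were also higher in 6 of 6 libraries, at 18.8 ± 4.57 against 6.41 CPM and 16.6 ± 4.78 against 8.27 CPM. Oligodendrocyte-type nuclei held 61.2 CPM of Ddc, more than members, and the part of free RNA in its level was not tested. Th, tyrosine hydroxylase, had 89 UMIs in members, at 8.22 against 2.71 CPM. Dbh had 1 UMI and Fev none.

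Members were mixed in their transmitters. With at least 3 UMIs of Gad1, Gad2 and Slc32a1 together and at most 1 of Slc17a6, 654 members (46.8%) counted as GABAergic. With at least 2 UMIs of Slc17a6, the vesicular glutamate transporter of subcortical neurons, and at most 2 of the GABA genes, 57 (4.08%) counted as glutamatergic. Both criteria were met by 16 members and neither by 671 (48.0%). These limits are on raw UMIs, so the class of a nucleus depends on its depth. Vehicle library 3, with the lowest median of UMIs per member (5795), had the largest unclassed share (64.7%). Gad2 was detected in 55.5% of members thinned to 5000 UMIs, 49.9% of other Meg3-high nuclei and 4.98% of oligodendrocyte-type nuclei, and in 62.9%, 51.3% and 5.99% without thinning. Levels differed by class. Sim1 was at 83.1 CPM in glutamatergic and 52.2 CPM in unclassed members but at 2.204 CPM in GABAergic members, with 42, 238 and 13 UMIs. Avp was at 194, 229 and 19.8 CPM, and so was also lowest in GABAergic members, but highest in unclassed ones. Isl1 had the other order, at 7.92, 30.7 and 33.4 CPM, and Gal had 112 UMIs in GABAergic, 49 in unclassed and 0 in glutamatergic members. Dlk1 was at 97.8 CPM in unclassed members, 59.4 CPM in glutamatergic and 50.7 CPM in GABAergic ones, whereas Prlr was at 95.1, 97.0 and 93.8 CPM. These class levels pool the libraries and have no error.

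Neuropeptide genes marked small sets of members. Of 1398 members, 973 (69.6%) had fewer than 2 UMIs of each of the peptide genes examined and of Th, 332 had at least 2 UMIs of 1 such gene and 93 of more than 1. Avp, vasopressin, reached 2 UMIs in 59 members, between 7 and 18 per library, with up to 89 UMIs in a nucleus of LPA library 3. Sim1 also reached 2 UMIs in 21 of these 59, out of 65 in all. Sst and Npy reached 2 UMIs in 81 and 62 members. They met in 27, and 13 of the Sst members had Lhx6, a factor of interneurons from the medial ganglionic eminence. Npy and Agrp, the pair of hunger-promoting arcuate neurons, met in 27 members, of 62 with Npy and 96 with Agrp. Trh, thyrotropin-releasing hormone, reached 2 UMIs in 9 members, 7 of them with Sim1. Gal and Ghrh reached it in 32 and 11 members, which is 2.29% and 0.787%, against 0.180% and 0.0301% of other Meg3-high nuclei. Gnrh1 did so in 7 members, with 23 of its 76 UMIs in 1 nucleus of vehicle library 2. Oxt, oxytocin, had 48 of its 54 UMIs in a single nucleus of the same library, and its share of thinned members with a UMI, 0.339% (95% Wilson interval 0.132% to 0.869%), was at the background of 0.211% in oligodendrocyte-type nuclei. Neither Pmch nor Kiss1 had a UMI in members. Vip, Cck and Pdyn reached 2 UMIs in 0.572%, 0.644% and 0.358% of members, less often than in other Meg3-high nuclei (1.74%, 1.18% and 0.787%). Of 17 genes of the neuropeptide list with at least 100 member UMIs, 9 were higher and 3 lower in 6 of 6 libraries, beside 24.8% and 13.5% of all genes. Summed over the list, members held 1449 CPM and other Meg3-high nuclei 1469 CPM, of which Cpe gave the most. Agrp needs care, since 6.19% of oligodendrocyte-type nuclei had a UMI of it after thinning, beside 16.6% of members, and its annotated span (chr8:105566698-105637393, minus strand) is far longer than the coding gene.

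**Figure D3:**
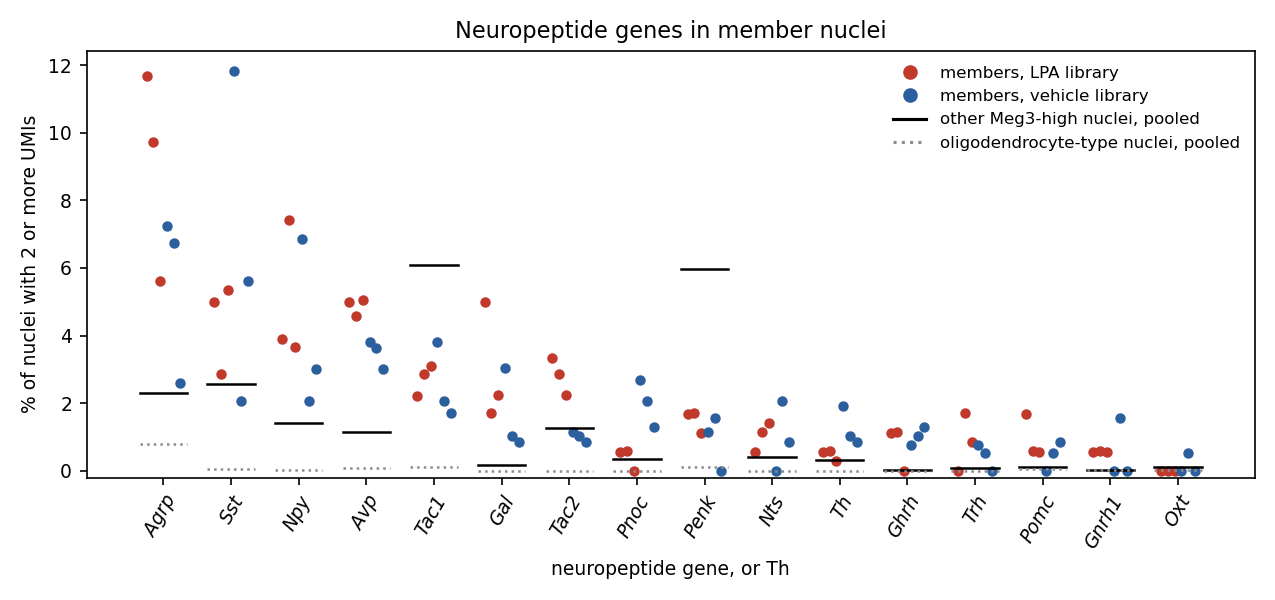
Percentage of members with 2 or more UMIs of 15 neuropeptide genes and Th in each library (LPA red, vehicle blue), with black lines for other Meg3-high nuclei and dotted lines for oligodendrocyte-type nuclei, pooled over libraries. Agrp, Sst, Npy and Avp are the most frequent, all above the black lines on average, while Tac1 and Penk lie below them. Vip, Cck and Pdyn, not shown, were also rarer in members than in other Meg3-high nuclei.

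The first comparison of the design asked whether LPA changed how many such nuclei were recovered. Members made up 2.11%, 1.70% and 3.91% of nuclei in LPA libraries 1, 2 and 3 and 3.23%, 1.56% and 1.88% in vehicle libraries 1, 2 and 3. The means were 2.58% ± 1.17 and 2.22% ± 0.89 (SD, n = 3), and the groups overlapped, with LPA 3 and vehicle 1 the highest. The difference of 0.35 percentage points was smaller than either SD (two-sided exact permutation test, p = 0.6, where 20 assignments allow no p under 0.1). Without LPA library 3 it turned to -0.32, and to -0.15 when nuclei under 5000 UMIs were left out, the others were thinned to 5000 UMIs and the limits were lowered to 3 rule UMIs and 5 UMIs of Meg3. Thinning left 4003 of 8525 nuclei in LPA library 1 and 3790 of 12319 in vehicle library 3. The share also depends on the NeuN sort. Replicates are separate samples by their labels, and p-values measure the spread between these samples.

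No transmitter class passed the test between groups. GABAergic members made up 47.7% ± 4.39 in LPA and 44.6% ± 12.2 in vehicle libraries (exact permutation test, p = 0.8), the lowest value, 31.0%, being in vehicle library 3. Glutamatergic members made up 7.22%, 4% and 4.49% in LPA libraries and 2.29%, 3.63% and 3.45% in vehicle libraries, which did not overlap. Their p of 0.1 is the smallest an exact test of this design can give, and was 0.4 after Benjamini-Hochberg adjustment over 4 classes. After thinning of the deeper nuclei, with the limits lowered to 2 GABA UMIs and 1 of Slc17a6, this class held 8.74% ± 2.35 and 7.31% ± 0.88 (exact permutation test, p = 0.5). Without thinning, the glutamatergic difference was 2.12 percentage points. With 1 library left out it ran from 1.13 (without LPA library 1) to 2.74 (without LPA library 2).

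**Figure D4:**
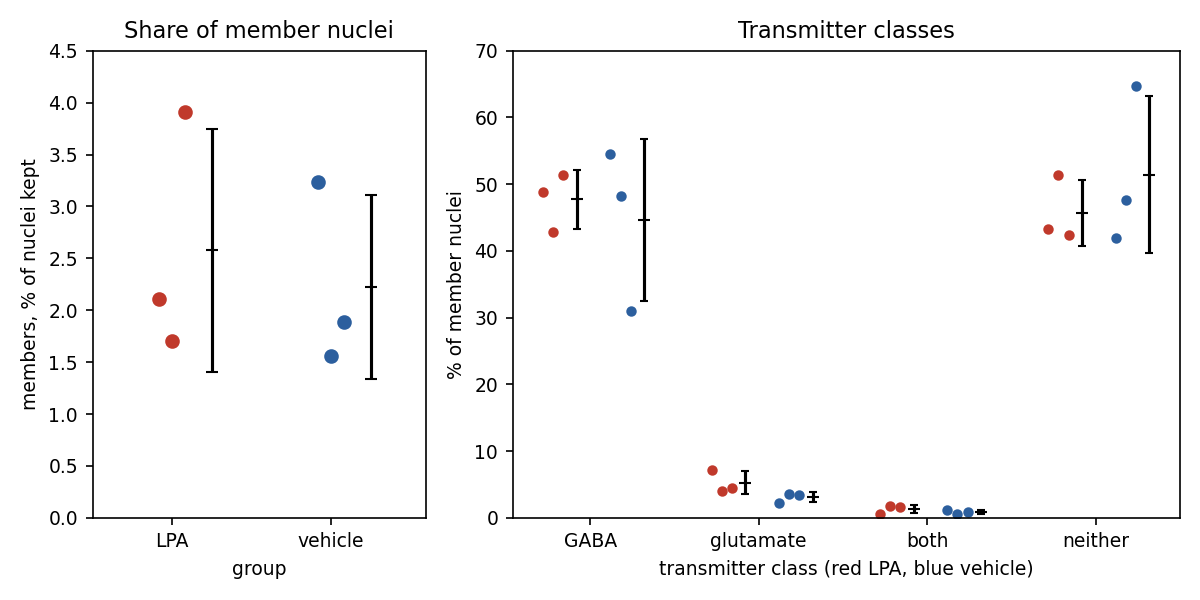
Left, members as a percentage of nuclei kept. Right, transmitter classes as a percentage of members. Points are libraries (LPA red, vehicle blue), and black bars are the mean and SD of 3 libraries. The groups overlap in share and in every class but the glutamatergic one.

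The second comparison asked which genes differed between LPA-injected and vehicle-injected mice within members, on UMIs summed per library. By edgeR's quasi-likelihood test with Benjamini-Hochberg adjustment, 12 of 11800 genes were called (0.102%), where a call needed an adjusted p below 0.05 and a change of 0.25 or more on the log2 scale, 3 higher (0.0254%) and 9 lower (0.0763%) in LPA. At an unadjusted p below 0.05, 425 genes (3.6%) were higher and 322 (2.73%) lower. Without vehicle library 3, only Eln was called, and without vehicle library 2, 33 genes were. Without LPA library 2, LPA library 3 or vehicle library 1, 4, 7 and 7 genes were called. With sex in the fit 10 genes were called, 7 of them among the 12 (5 mitochondrial genes, Ide and Eln), while Enpp6, Cfap44, Aox3 and Bmp6 were among those lost. The levels of Baiap3, Ecel1 and Magel2 within members are bounded by the rule itself, so their log2 fold changes of -0.17, -0.41 and -0.29 are a description with no test. Of the markers outside the rule, Dlk1 had -0.12 (SE 0.13) and Scn9a -0.13 (SE 0.11), both uncalled, and the 15 leading genes lay between -0.34 and 0.11. All 38 imprinted genes tested were uncalled, 9 with a positive and 29 with a negative log2 fold change, at a median of -0.07 beside -0.01 for all genes. For the same genes the median in other Meg3-high nuclei was -0.08.

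Mitochondrial transcripts formed the largest called group, and fell. The rule limits them to 1% of the UMIs of a nucleus, so their levels in members are bounded by it. Without that limit there were 1399 members, and the same 12 genes were called. mt-Cytb, mt-Co2, mt-Nd4, mt-Co3 and mt-Atp6, which encode subunits of the respiratory chain and of ATP synthase, were called out of 9 mitochondrial genes tested, and all 9 were lower at an unadjusted p under 0.05. mt-Co3 was at 38.3, 54.8 and 95.7 CPM in LPA libraries and at 198, 137 and 219 CPM in vehicle libraries, a log2 fold change of -1.45 (SE 0.21, edgeR adjusted p = 0.00693). The calls of mt-Co3 and mt-Atp6 were lost in 4 of 17 alternatives, by DESeq2 and without LPA library 2, vehicle library 1 or vehicle library 3, those of mt-Cytb and mt-Co2 in 2 and that of mt-Nd4 in 1, each of these including the one without vehicle library 3. Groups did not overlap for mt-Co3, and LPA library 3 came nearest to the vehicle libraries. The same gene had a log2 fold change of -1.45 in other Meg3-high nuclei, where it was at 51.7, 73.4 and 109 against 219, 186 and 237 CPM, and 4.33% of LPA 3 barcodes and 6.15% of vehicle 1 barcodes had exceeded the mitochondrial limit, the highest in their groups. The test of the difference between the populations gave -0.07 for mt-Co3 (edgeR, unadjusted p = 0.524). Mitochondrial RNA in sorted nuclei comes from outside the nucleus, and its part in the result was not tested.

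Ide, insulin-degrading enzyme, rose. It was at 82.8, 94.2 and 92.3 CPM in LPA libraries and at 60.4, 49.4 and 43.6 CPM in vehicle libraries, without overlap (log2 fold change 0.80, SE 0.13, edgeR adjusted p = 0.00907). The value was 0.67 in other Meg3-high nuclei, and the difference was within error (edgeR, unadjusted p = 0.342). The call was lost in 4 of 17 alternatives, without LPA library 2, LPA library 3 or vehicle library 3 and with 6 rule UMIs (edgeR adjusted p up to 0.505), and the log2 fold change ran from 0.69 to 0.94. Ide UMIs were spread over many members, 88, 85 and 189 nuclei in the LPA and 103, 57 and 48 in the vehicle libraries. Cfap44, a ciliary protein gene, rose by 0.73 (SE 0.14, edgeR adjusted p = 0.0413), from 37.3 ± 3.33 to 62.8 ± 7.68 CPM (SD, n = 3), and by 0.93 in other Meg3-high nuclei. Its call was lost in 14 of 17 alternatives, and the log2 fold change ran from 0.34 to 0.79. Without members that Scrublet called doublets, Cfap44 was at 47.5, 56.0 and 47.7 CPM in LPA and at 39.7, 38.0 and 41.2 CPM in vehicle libraries. Other ciliary genes were uncalled. Dnah12 had a log2 fold change of 1.10 and Cfap299 of 0.70 in members, and the ependymal and choroid plexus list, led by Ttr, summed to 87.2, 129 and 129 CPM in LPA and to 79.0, 44.9 and 49.8 CPM in vehicle members.

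Enpp6, a choline phosphodiesterase of newly forming oligodendrocytes, rose from 12.2, 12.4 and 6.82 CPM in vehicle libraries to 20.7, 31.6 and 32.5 CPM in LPA libraries (log2 fold change 1.44, SE 0.25, edgeR adjusted p = 0.0250). Oligodendrocyte-type nuclei held 321 CPM. It was found in 19, 20 and 30 LPA members and 14, 13 and 10 vehicle members. The Enpp6 call was lost in 8 of 16 alternatives, among them sex in the fit and an upper limit on UMIs. Leaving out LPA library 2, LPA library 3, vehicle library 1 or vehicle library 3 also lost it. Over the alternatives the log2 fold change ran from 1.23 to 1.89. The 10 oligodendrocyte markers outside the rule summed to 760 ± 147 CPM in LPA and 772 ± 78.6 CPM in vehicle members, with Mbp the most abundant, and without members that Scrublet called doublets Enpp6 was at 15.8, 9.69 and 8.67 against 6.61, 8.44 and 6.13 CPM. The part of free RNA in this result was not tested.

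Eln, Aox3 and Bmp6 fell. Eln, elastin of the extracellular matrix, was at 11.9, 21.8 and 11.6 CPM in LPA members and at 58.5, 61.8 and 26.6 CPM in vehicle members (log2 fold change -1.79, SE 0.28, edgeR adjusted p = 0.00904). A single nucleus held 67 of the 120 Eln UMIs of vehicle library 1 and another 48 of the 95 in vehicle library 2. Without the members that Scrublet called doublets, Eln was at 10.9, 10.8 and 11.1 CPM in LPA and at 21.8, 17.9 and 20.2 CPM in vehicle libraries, and the call was lost (log2 fold change -0.87, edgeR adjusted p = 0.994). Aox3, aldehyde oxidase 3, had 96 UMIs in all and was at 4.39, 1.41 and 3.75 CPM in LPA and at 17.1, 13.7 and 12.96 CPM in vehicle libraries (log2 fold change -2.11, SE 0.35, adjusted p = 0.0178 by edgeR). Without Scrublet doublets it was at 3.95, 0 and 4.82 against 5.29, 4.22 and 7.89 CPM, which overlapped, and had too few UMIs to test. Its call was lost in 6 of 14 alternatives, among them those without LPA library 2, LPA library 3, vehicle library 1 or vehicle library 3, with a log2 fold change of -1.01 at 3 rule UMIs. Bmp6, a bone morphogenetic protein, stood at 30.1, 25.3 and 31.3 against 62.9, 41.6 and 60.01 CPM, but its log2 fold change of -0.90 turned to 0.22 without Scrublet doublets. The 10 vascular and meningeal markers, Bmp6 among them, summed to 173, 210 and 211 CPM in LPA and to 279, 358 and 229 CPM in vehicle members, with Slc6a20a the most abundant and none at 0. In other Meg3-high nuclei the sums were 342, 390 and 315 against 445, 423 and 379 CPM. Their part in the result was not tested.

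**Figure D5:**
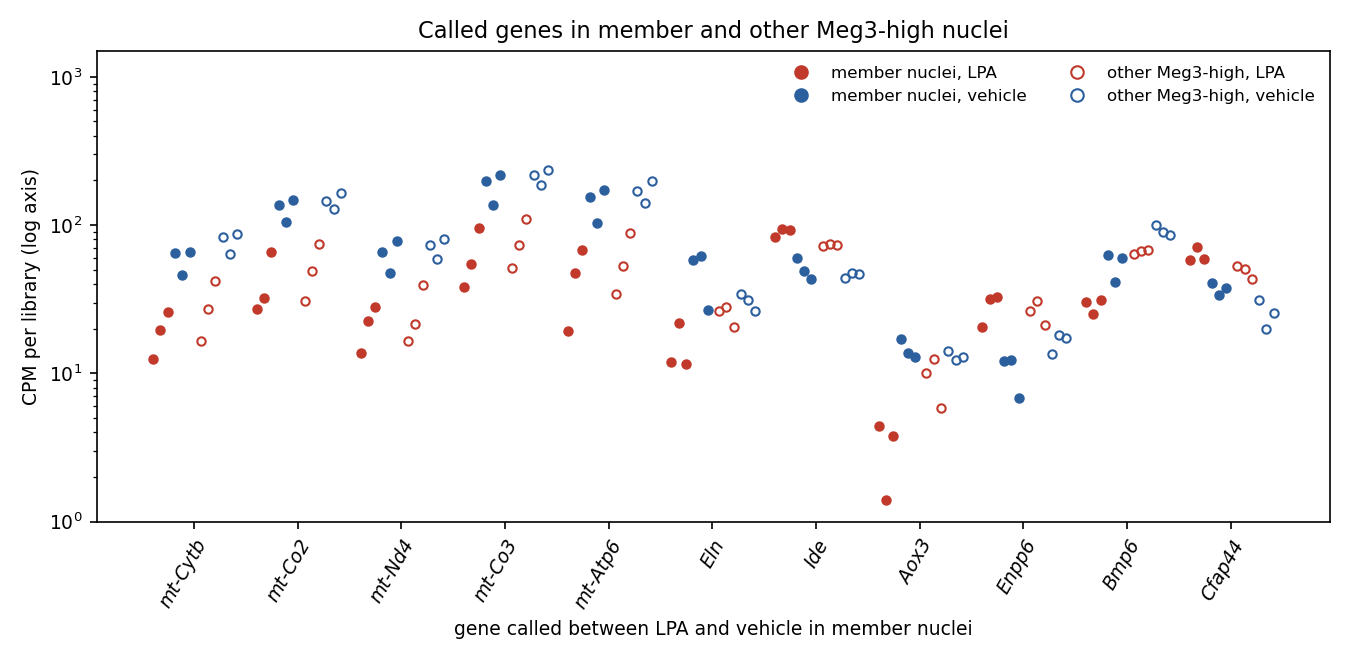
CPM (log axis) of 11 of the 12 genes called between LPA (red) and vehicle (blue) libraries in members (filled), with the same libraries' other Meg3-high nuclei (open). For the mitochondrial genes, Ide and Cfap44 the LPA and vehicle libraries are apart in both populations, while filled Eln and Aox3 points lie wider apart than open ones.

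Only Eln passed the test of whether the LPA effect differed between members and other Meg3-high nuclei, among 17264 genes tested with edgeR (0.00579%), with a difference of -1.42 on the log2 scale and an adjusted p of 0.0152. DESeq2 called 0 genes, with 252 at an unadjusted p under 0.05, and edgeR called 0 without vehicle library 1. At an unadjusted p below 0.05, 412 genes (2.39%) had a positive and 436 (2.53%) a negative difference. In other Meg3-high nuclei, 434 of 18085 genes (2.4%) were called, 374 higher (2.07%) and 60 lower (0.332%) in LPA, and 9.13% were higher and 5.41% lower at an unadjusted p below 0.05. With as many of them as there are members in each library, 43 of 11324 were.

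No glucocorticoid response, immediate-early or astrocyte gene of the lists was called in members with the default settings. Of 10 glucocorticoid response genes tested, 4 (Zbtb16, Fkbp5, Nfkbia and Errfi1) were lower at an unadjusted p under 0.05 by edgeR, beside 2.73% of all genes. Fkbp5, a co-chaperone induced by glucocorticoids, was at 52.1, 45.7 and 48.2 CPM in LPA and at 68.2, 67.0 and 79.1 CPM in vehicle members, without overlap (log2 fold change -0.55, SE 0.13, edgeR adjusted p = 0.144), and was called without a filter on low counts (edgeR adjusted p = 0.0296) and at 3 rule UMIs (0.0379). It was -0.52 in other Meg3-high nuclei, where it passed (edgeR adjusted p = 0.00542). Tsc22d3, another glucocorticoid target, had a log2 fold change of 0.19 (SE 0.25). Of 11 immediate-early genes, Fos, Egr1 and Junb had log2 fold changes of 1.07, 0.81 and 0.66 at an unadjusted p under 0.05 by edgeR, beside 3.6% of all genes that were higher. Gfap and C4b, which reactive astrocytes raise, had log2 fold changes of 1.09 (SE 0.28) and 1.79 (SE 0.39) and were uncalled, and in other Meg3-high nuclei of 2.08 and 2.00. C4b was called in members without a filter on low counts (edgeR adjusted p = 0.00235). Gfap was at 15.1, 18.3 and 14.4 against 6.34, 6.50 and 9.55 CPM in members. The 11 astrocyte markers, of which Slc1a2 was the most abundant and none at 0, summed to 1625 ± 108 CPM in LPA and 1385 ± 280 CPM in vehicle members, and to 2132 CPM in other Meg3-high nuclei. The 10 immune markers, led by P2ry12, summed to 164 ± 59.4 and 137 ± 41.1 CPM. Among LPA receptor genes, Lpar1 was at 18.98 CPM in members against 26.5 CPM in other Meg3-high nuclei and 297 CPM in oligodendrocyte-type nuclei. Lpar2, Lpar3, Lpar4, Lpar5 and Lpar6 had 24, 11, 24, 1 and 40 UMIs over all members and were too low to test.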

How the data were processed

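NeuN-negative snRNA-seq libraries of the 10x Genomics 3′ v3 kit were analyzed, 3 LPA and 3 vehicle. The authors made the deposited filtered matrices with Cell Ranger 4.0.0 on a pre-mRNA reference of mm10, so intronic reads were counted. The deposited values are raw UMI counts of 32285 genes without normalization, 48852970 to 65688644 per library. Members and gene lists were chosen with earlier results of these data known. Gene positions are from GENCODE M21, in which 32235 of the identifiers matched. CPM is not scaled to gene length, so the most abundant gene of a list is the one with the most UMIs.

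UMIs were summed per library and population and scaled to CPM. Named genes are the markers, Rbfox3, the 15 leading genes (at least 60 UMIs, higher in 6 of 6 libraries), called genes, examples of the fixed lists, LPA receptor genes, Fkbp5, Tsc22d3, Gfap and C4b. A few genes that the rule names are counted but not reported here. Groups were tested with edgeR 4.0.16 (R 4.3.3, TMM, default filter, quasi-likelihood) and exact permutation tests (scipy 1.17.1). Doublets were not removed in the main values. Scrublet (scanpy 1.11.5, expected rate 0.08) called 22.8% to 25.6% of members in LPA and 17.2% to 23.8% in vehicle libraries. The edgeR script was tested on simulated data. Alternatives included DESeq2 1.42.0, other limits of the rule and leaving out each library.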

Additional observations from a re-analysis of the deposited data

Results flagged for a closer look

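The LPA effect on Eln differed between members and other Meg3-high nuclei by -1.42 on the log2 scale (edgeR interaction test, adjusted p = 0.0152). In members the log2 fold change was -1.79 and every LPA library was below every vehicle library, while in other Meg3-high nuclei it was -0.30 (edgeR adjusted p = 0.258). In vehicle library 1, 37 of 262 members had an Eln UMI and 5 of them held 70% of its Eln UMIs. In vehicle library 2 the 5 highest members held 80%. Under an upper limit on UMIs per nucleus Eln in members was at 12.8, 14.6 and 10.6 CPM in LPA and at 19.9, 16.5 and 16.9 CPM in vehicle libraries, and the call was lost (log2 fold change -0.55, edgeR adjusted p = 0.874). It was also lost without Scrublet doublets, without LPA library 3 (log2 fold change -1.57, edgeR adjusted p = 0.146) and without vehicle library 1 (-1.64, edgeR adjusted p = 0.0745).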

How the results depend on the processing

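The share of members (difference 0.35 percentage points) turned to -0.148 after thinning with lowered limits and ran from -0.316 to 0.857 with 1 library left out. The GABAergic class turned to -0.252 after thinning (-3.67 to 8.11 with 1 library left out), the class with both transmitters to -0.399 with 6 rule UMIs, and unclassed members ran from -10.4 to 0.899 with 1 library left out. Against 12 genes called in members, 93 were called without a filter on low counts, 5 with 6 rule UMIs, 7 under an upper limit on UMIs, 7 without Scrublet doublets and 8 by DESeq2. Of these, 12, 5, 6, 6 and 7 were among the 12. Leaving out 1 library gave 1 gene (without vehicle 3) to 33 genes (without vehicle 2) in members and 138 to 571 in other Meg3-high nuclei, and an equal number of nuclei gave 43 there. For the difference between populations (1 gene), DESeq2 gave 0, no filter 18, and, chosen after seeing the data, leaving out 1 library 0 to 7 and an equal number of nuclei 0. Dlk1, uncalled, turned to 0.26 with 6 rule UMIs and 0.0158 without Scrublet doublets, and ran from -0.19 to 0.0147 with 1 library left out. Rbfox3 turned to -0.21 with 6 rule UMIs and Bmp6 to 0.22 without Scrublet doublets. The cause was not tested. Calls of Cfap44, Bmp6, Enpp6 and Aox3 were lost in 14, 10, 8 and 6 alternatives.

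A fit with a replicate block gave 36 genes in members, the 12 among them, and 473 in other Meg3-high nuclei. It called C4b in members (edgeR adjusted p = 0.0497). The share difference of 0.35 is the same by arithmetic when libraries are paired by number. Deviations of same-numbered LPA and vehicle libraries correlated at 0.0471, 0.110 and -0.0793 over 11800 genes, and not every library correlated best with its own number. Over the 9 pairs of an LPA and a vehicle library, the correlation was positive in the 4 of the same sex and negative in the 5 of unlike sex. The libraries share only a number. At 175 to 356 members per library, genes with few UMIs were not testable.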
